A study of Homo sapiens with 6 samples.

Results

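The aryl hydrocarbon receptor axis was followed as 6 genes, AHR, ARNT, AHRR, TIPARP, CYP1A1 and CYP1B1. They were chosen by name, with earlier results of these data known. All 6 were found among the 58381 gene identifiers of the count table. The libraries came from MOLM13, an established human acute myeloid leukaemia line with the fusion gene MLL-AF9 and an activating FLT3 duplication. One group was kept for 20 h in 5 µM DB2115, a compound the labels give only by this code name, and the other in vehicle, 0.001% DMSO. Both groups grew in RPMI medium with serum and antibiotics. Everything described here comes from this 1 line, so it says nothing of other cells. The labels list 3 replicates per group, but the third column of each group is the sum of the other 2, to the read in 85.6% of detected genes for vehicle and in 86.3% for DB2115. Each group therefore has n = 2 libraries, called A and B after their columns. The labels do not say that these came from separate cultures, so p-values refer only to how far these libraries spread, and that spread may be technical.

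The aryl hydrocarbon receptor, encoded by AHR, is a transcription factor of the bHLH-PAS family that waits in the cytosol in a complex with the chaperone HSP90. On binding a ligand, such as a dioxin, a polycyclic hydrocarbon or a tryptophan metabolite, it moves to the nucleus, pairs with ARNT and binds DNA at a core motif, GCGTG. CYP1A1 and CYP1B1, oxidases of foreign compounds and steroids, are its best known targets. AHRR and TIPARP are also induced and act back on it, AHRR as a repressor and TIPARP as an enzyme that ADP-ribosylates the receptor. In blood the receptor is known for its part in the growth of stem and progenitor cells and in the maturation of monocytes.

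Total counts per library lay between 36547900 and 42446253, so that 3 counts in 1 library equal 0.0707 to 0.0821 CPM on these totals. CPM is the count scaled to a common library size. The CPM values of genes use library sizes scaled by TMM. On these, 3 counts are 0.0854 CPM in vehicle library A and 0.0726 CPM in vehicle library B. All 9 markers fixed for myeloid leukaemia cells were measured above 1 CPM on average, although most of them changed with treatment, in both directions. PTPRC, with a log2 fold change of -2.60, FLT3, ELANE and LYZ were lower with DB2115. MPO, with a log2 fold change of 2.46, CSF3R, CD33 and CEBPA were higher, and SPI1 was not called. Lists of markers of other cell types were low in vehicle and partly higher with DB2115. Summed levels went from between 2.44 and 3.73 to between 64.6 and 66.9 CPM for the 4 epithelial markers. That sum was almost wholly KRT8, at 2.25 and 64.6 CPM on average, while KRT18 was not called, CDH1 had 6 and 9 counts and EPCAM 14 and 4 counts. They went from between 4.45 and 9.59 to between 36.7 and 47.1 CPM for the 3 fibroblast markers, mostly COL1A1, with DCN at 2 and 8 counts. For the 3 B cell markers they went from between 1.48 and 1.57 to between 12.6 and 13.6 CPM, with MS4A1 at 2 counts and 1 count. The 3 T cell, 4 erythroid and 3 hepatocyte markers summed to at most 1.29, 0.440 and 0.169 CPM in any library, and CD2, HBG1 and TTR were among those with no counts. The part of these marker genes in the results below was not tested. Fewer cells of a type and less RNA per cell cannot be told apart in such bulk libraries.

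With DB2115 the targets CYP1A1 and CYP1B1 and the regulators TIPARP and ARNT rose, AHRR fell slightly, and no change of AHR itself was called. A gene was called where edgeR's quasi-likelihood test gave a Benjamini-Hochberg adjusted p under 0.05 over all 17219 genes tested. All 6 genes passed the filter on low counts, but CYP1A1 and CYP1B1 passed it only through their DB2115 libraries, so that they could enter the test only by being higher there. Of the 6, 4 were called higher, 1 lower and 1 not, 83.3% called. Over all genes tested 64.1% were called, 32.7% higher and 31.3% lower. The libraries of the groups did not overlap in any of the 6 genes, and the same held for 81.3% of all genes tested, so separation of the groups sets no gene apart here. Among the 4 genes that passed the filter in vehicle as well, 2 were higher, 1 lower and 1 not called, so these counts do not set the axis apart from other genes.

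**Figure D1:**
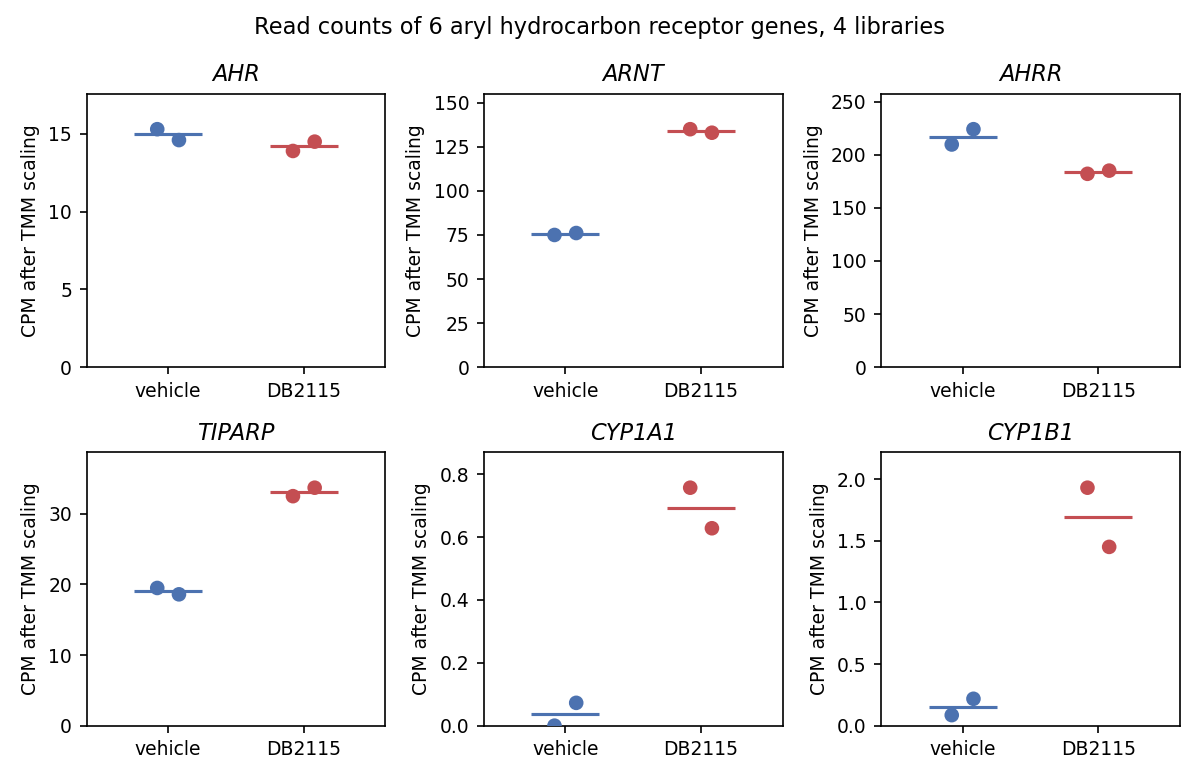
CPM after TMM scaling of each of the 6 genes (vertical axis, from 0, its own range in each panel) in the vehicle and DB2115 groups; points are the libraries A (left) and B (right) and bars are group means. ARNT, TIPARP, CYP1A1 and CYP1B1 are higher with DB2115, AHRR is at 182 and 185 CPM against 209.6 and 224 CPM, and AHR lies between 13.9 and 15.3 CPM throughout.

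The core motif GCGTG was looked for, on both strands and counting overlapping matches, in the 250 bases before each RefSeq start, using RefSeq sequences of GRCh38.p14. The sequence table matched 5 of the 6 genes (not CYP1B1), with 8 windows. The motif was found 6 times, in 4 of these windows. Of all 35116 windows of that length in the table, 32.2% held it at least once, 10.2% at least 2 times and 3.16% at least 3 times. The stretches are shown because they let the surroundings of the motif be compared between the target gene and the feedback genes. Each is written 5′ to 3′ in the direction of GCGTG, which is in capitals, with up to 12 bases on each side.
CYP1A1, chr15:74725569-74725597, minus strand: ccagggaaggagGCGTGgccacacgtaca
TIPARP, chr3:156674370-156674398, minus strand: tcccgcgaggggGCGTGtcctttctcgcg
TIPARP, chr3:156674436-156674464, minus strand: ccccctgcgcgcGCGTGcgcgttcgttcg
AHRR, chr5:321672-321700, plus strand: ggcgggcggctcGCGTGccggggtggggc
AHRR, chr5:322360-322379, plus strand: ggcGCGTGacaggcaggggc
AHRR, chr5:322556-322584, plus strand: gcagaagggtggGCGTGtgcgcgcgttct

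Starts here are those of RefSeq, which differ from the GENCODE gene limits printed below, and all 6 matches lie inside the GENCODE gene spans. The match of CYP1A1 began 57 bases before its start, and those of TIPARP 208 and 142 bases before the first of its 3 RefSeq starts. AHRR, which fell, held 1 match before one start and 2 before the other. ARNT, which rose, and AHR held none in these windows, though AHR held 1 when the 50 bases after the start were added. A match is a description of these letters and not a binding site, and so is its absence.

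AHR (ENSG00000106546, chromosome 7, 16916359 to 17346152, plus strand), the receptor, stood at 15.3 and 14.6 CPM in vehicle libraries A and B. With DB2115 it stood at 13.9 and 14.5 CPM. The lowest vehicle library and the highest DB2115 library were thus almost level. The log2 fold change was -0.08 (SE 0.09, edgeR adjusted p = 0.503), and its sign turned to 0.02 (adjusted p = 0.878) with upper-quartile factors and to 0.02 (adjusted p = 0.876) with total counts. The annotated exons of AHR share 2373 of their 8081 bases with a second protein-coding model on the same strand, ENSG00000283321, which is listed at 0 counts in all 4 libraries. The sources used here do not give how reads in shared exons were counted, so the level of AHR may be understated in both groups alike.

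ARNT (ENSG00000143437, chromosome 1, 150809705 to 150876768, minus strand) encodes the partner that AHR needs to bind DNA and that also pairs with hypoxia-inducible factors. It was measured at 75.0 and 76.1 CPM in vehicle and at 135 and 133 CPM with DB2115. The libraries of each group lay close together and the groups far apart. The change was 1.78-fold, a log2 fold change of 0.83 (SE 0.06, edgeR adjusted p = 7.08e-08).

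AHRR (ENSG00000063438, chromosome 5, 304176 to 438291, plus strand), the repressor that competes with AHR for ARNT, had the highest counts of the 6 genes. It stood at 209.6 and 224 CPM in vehicle and at 182 and 185 CPM with DB2115. It fell by 0.24 on the log2 scale (SE 0.06, edgeR adjusted p = 0.00358), which makes it 1.18-fold lower. This small change was negative in all 12 alternatives, but the call was lost with upper-quartile factors (-0.14, adjusted p = 0.0517), with total counts (-0.14, adjusted p = 0.0567) and without vehicle library B (-0.21, adjusted p = 0.0649). AHRR overlaps PDCD6 on the same strand, with 244 exon bases in common. PDCD6, a calcium-binding protein gene, fell from 139 and 133 to 106 and 97.1 CPM (-0.42, edgeR adjusted p = 9.99e-05).

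TIPARP (ENSG00000163659, chromosome 3, 156673235 to 156706770, plus strand), the ADP-ribosyltransferase also named PARP7, was at 19.5 and 18.6 CPM in vehicle. With DB2115 it was at 32.5 and 33.7 CPM. All DB2115 values lay well above the vehicle values. The rise was 1.74-fold (log2 fold change 0.80, SE 0.08, edgeR adjusted p = 1.65e-06). TIPARP-AS1, a divergent non-coding gene on the other strand, had 16 counts in vehicle and 25 with DB2115 and was not called (0.51, adjusted p = 0.486).

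CYP1A1 (ENSG00000140465, chromosome 15, 74719542 to 74725610, minus strand), the classical target of the receptor and the gene with 1 motif match above, was nearly silent in vehicle, with 0 counts in library A and 3 counts in library B. With DB2115 it had 31 and 26 counts, or 0.757 and 0.628 CPM. Both DB2115 libraries were thus above both vehicle libraries, at a level that is still low. Summed over the libraries the ratio was 17.6, with an exact 95% counting interval of 5.74 to 88, which covers counting error only. The fitted log2 fold change was 4.04 (edgeR adjusted p = 0.000425). It rested on the 3 reads of vehicle library B, being 7.76 without that library, a value set by the prior count, and 3.19 without vehicle library A.

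CYP1B1 (ENSG00000138061, chromosome 2, 38066973 to 38109902, minus strand), the family member that is more often found outside the liver, had 3 and 9 counts in vehicle (0.0854 and 0.218 CPM). It had 79 and 60 counts with DB2115 (1.93 and 1.45 CPM). The groups lay far apart, and the libraries within each differed as well. The ratio of summed counts was 10.8 (exact 95% counting interval 5.96 to 21.3) and the log2 fold change 3.41 (SE 0.47, edgeR adjusted p = 3.1e-05), or 4.23 without vehicle library B. The standard errors of genes with so few vehicle counts come from the fit and are not free of its prior.

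CYP1B1-AS1 and RMDN2, which overlap CYP1B1, were also called higher. RMDN2-AS1, on the same strand as CYP1B1 with 69 shared exon bases, had no counts in any library. CYP1B1-AS1, on the opposite strand with 678 shared exon bases, had 1 count in each vehicle library and 15 and 20 counts with DB2115, which gives a ratio of 16.2 (exact 95% counting interval 4.17 to 139), and like CYP1B1 it passed the filter only through the DB2115 libraries. RMDN2, also on the opposite strand with 96 shared exon bases, had 69 and 217 counts (log2 fold change 1.53, edgeR adjusted p = 0.000914). The sources used here do not give whether counting used strand, and without strand the reads of these genes cannot be told apart where they overlap. CYP1A2, the third enzyme of the family, had no counts in any library.

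Levels of different genes can be set side by side only per length, here as RPKM, the CPM value divided by length in kilobases, over the union of annotated exons. In vehicle AHRR came first at 28.2 ± 1.3 RPKM (SD, n = 2), then ARNT at 11.6 ± 0.127, TIPARP at 3.77 ± 0.13 and AHR at 1.85 ± 0.0557 RPKM. CYP1B1 at 0.0252 ± 0.0156 and CYP1A1 at 0.0106 ± 0.0149 RPKM followed, and these last levels overlapped between libraries. The repressor AHRR was thus 14.4 and 16.1 times the level of the receptor AHR in vehicle libraries A and B, before any allowance for the shared exons of AHR.

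With DB2115 the order of the per-length levels was the same. AHRR was at 23.9 ± 0.274, ARNT at 20.6 ± 0.233, TIPARP at 6.56 ± 0.174 and AHR at 1.75 ± 0.0535 RPKM. CYP1B1 was at 0.281 ± 0.0565 and CYP1A1 at 0.202 ± 0.0267 RPKM, so neither oxidase came near AHR. These last values lay closer together than 1 SD of each added up. The ratio of AHRR to ARNT, repressor to partner, went from 2.37 and 2.49 in vehicle to 1.14 and 1.18 with DB2115. That of ARNT to AHR went from 6.09 and 6.45 to 12.1 and 11.4. The ratio of ARNT to TIPARP was between 2.98 and 3.23 in all 4 libraries. On the length of the longest transcript the order of the 6 genes was the same in both groups.

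**Figure D2:**
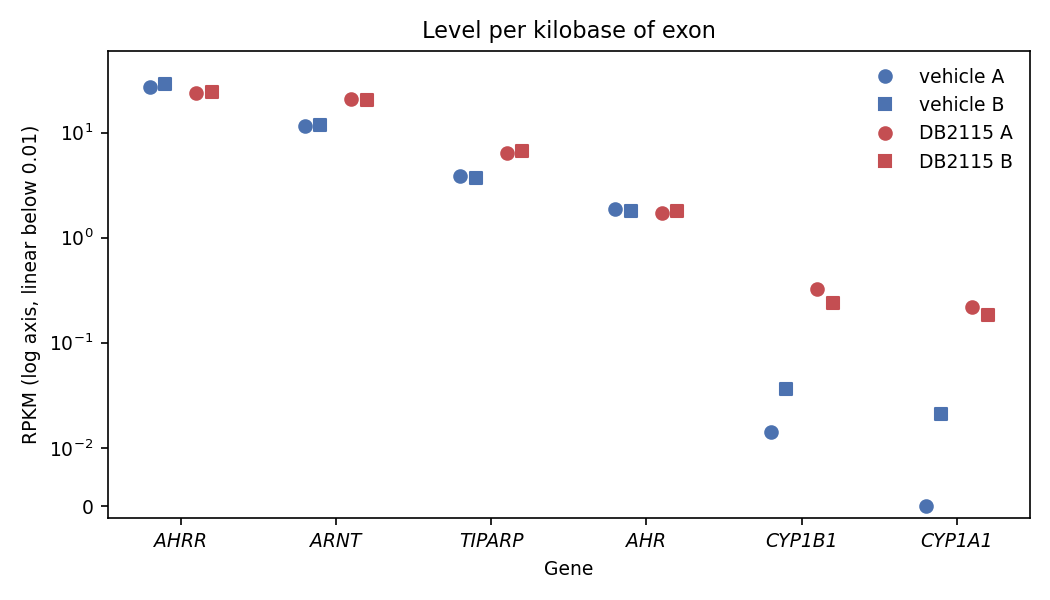
RPKM over the union of annotated exons (vertical axis, logarithmic, linear below 0.01) of the 6 genes ordered by their vehicle level, with each library as a point (circles A, squares B, blue vehicle, red DB2115). AHRR and ARNT lie highest, AHR near 1.8 RPKM, and CYP1B1 and CYP1A1 below 0.4 RPKM in every library, with CYP1A1 at 0 in vehicle library A.

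Among the other known AHR target genes, 8 of the 14 tested rose and 2 fell, 71.4% called beside 64.1% of all genes tested. One of the 8, XDH, passed the filter only through DB2115; of the other 13 genes 7 rose and 2 fell, with a median log2 fold change of 0.50 beside 0.03 over all genes tested. Of the 24 genes listed, 10 failed the filter, 8 of them without a count in any library, including CYP1A2, UGT1A6 and ABCG2. UGT1A6 and UGT1A1 share exons with each other and their neighbours, so a count of 0 may reflect the counting. NQO1, a quinone reductase that also answers to NRF2, rose from 26.1 and 23.3 to 85.7 and 77.7 CPM (fitted log2 change 1.73, edgeR adjusted p = 1.18e-09). CYP2S1, another cytochrome P450, rose from 11.6 and 12.1 to 34.8 and 36 CPM (1.58, adjusted p = 4.13e-09). In both of these enzyme genes the DB2115 libraries lay well above the vehicle libraries.

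PTGS2, the inducible cyclooxygenase, went from 1.43 ± 0.0953 to 13.3 ± 1.9 CPM (fitted log2 change 3.21, edgeR adjusted p = 3.63e-09). IL1B (3.15), SERPINB2 (2.54), HES1 (1.02) and NEDD9 (0.50) rose too, the last with its call lost without vehicle library B (0.43, adjusted p = 0.134). XDH, xanthine dehydrogenase, had no count in vehicle and 183 counts with DB2115; taking 3 counts for the whole vehicle group as the limit, it was at least 56.6-fold higher. XDH could enter the test only by rising. IL6 had no count in vehicle and 1 count with DB2115.

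The members of the target list that fell were SLC7A5 and STC2. SLC7A5, the amino acid transporter that also imports kynurenine, fell from 701 and 684 to 163 and 164 CPM (fitted log2 change -2.08, edgeR adjusted p = 2.42e-11). STC2, a secreted glycoprotein, had a log2 fold change of -2.17. NFE2L2 (0.03), CDKN1B (-0.04), LPAR1 (-0.02) and ALDH3A1 (0.39) were not called. The list was written from general knowledge of several tissues, but with earlier results of these data known. Its share called and its median are therefore not those of a list chosen blind. Most of its members have other regulators.

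Genes listed as making or handling tryptophan-derived ligands were mostly lower. This list too was drawn up with earlier results of these data known. It mixes genes that make ligands with genes that handle them, so its median says nothing of ligand supply, which was not tested. SLC7A5 was counted both here and in the target list. Of 10 tested, 7 fell and 1 rose, with a median log2 fold change of -1.24 (-1.30 without TPH1, which passed the filter only through DB2115). The share called was 80% beside 64.1% of all genes tested, of which 31.3% fell. KYNU, kynureninase, went from 8.54 and 9.99 to 0.342 and 0.362 CPM (fitted log2 change -4.71, edgeR adjusted p = 1.66e-09), 26.1-fold lower. SLC3A2, the heavy chain partner of SLC7A5, fell from 269.7 ± 7.71 to 91.9 ± 3.78 CPM (-1.55, adjusted p = 3.1e-10), and AFMID (-1.30) and KYAT3 (-0.90) fell too. IL4I1, an amino acid oxidase that yields AHR ligands, was the member that rose, from 1.56 and 1.33 to 8.25 and 7.60 CPM (2.46, adjusted p = 9e-08).

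The entry enzymes of the kynurenine pathway, IDO1, IDO2 and TDO2, were low throughout, as was KMO, which is not an entry enzyme. IDO1 and IDO2 had no counts in any library. TDO2 had 51 counts in vehicle and 17 with DB2115 (log2 fold change -1.69, edgeR adjusted p = 0.0117), a call lost without vehicle library A (adjusted p = 0.123), vehicle library B (0.0503) or DB2115 library A (0.0998) and in DESeq2 (0.0858). KMO had 63 and 30 counts (-1.18, adjusted p = 0.0448). Its call was lost without vehicle library A (adjusted p = 0.169), vehicle library B (0.137) or DB2115 library A (0.312) and in DESeq2 (0.185), and with upper-quartile factors (0.0649) or total counts (0.0673). Its log2 fold change was -0.72 without DB2115 library A and -1.91 without DB2115 library B.

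Of the genes of the cytosolic complex and of AHR turnover, 2 of 7 rose and 3 fell, with a median log2 fold change of -0.07 and 71.4% called, near the 64.1% of all genes tested. The chaperone genes moved most. HSP90AA1 went from 2123 and 2046 to 896 and 927 CPM (-1.19, edgeR adjusted p = 6.07e-09), 2.29-fold lower. HSP90AB1 went from 3500.5 and 3528 to 1764 and 1786 CPM (-0.99, adjusted p = 4.03e-08). The co-chaperone PTGES3 (0.00, adjusted p = 0.999) was not called. CUL4B, the scaffold of a ubiquitin ligase that acts with AHR, rose (0.42, adjusted p = 0.000175), and its adaptor DDB1 rose little (0.20, adjusted p = 0.0115). The call of DDB1 was lost without vehicle library A (adjusted p = 0.137), vehicle library B (0.101) or DB2115 library B (0.0927), which left 1 gene of this list called higher. The ligase STUB1 fell (-0.27, adjusted p = 0.00375), with adjusted p = 0.0564 without vehicle library A.

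Other bHLH-PAS genes, several of which pair with ARNT, were called higher in 3 and lower in 2 of the 6 tested, and 7 of the 13 listed failed the filter. Over all genes tested 32.7% were higher and 31.3% lower. EPAS1, the hypoxia-inducible factor HIF-2 alpha, rose from 19.8 and 19.9 to 72.7 and 69.0 CPM (fitted log2 change 1.84, edgeR adjusted p = 2.52e-10). HIF1A rose from 52.5 and 52.4 to 85.9 and 82.4 CPM (0.68, adjusted p = 8.53e-07). ARNT and both of these partners were thus higher with DB2115. ARNT2, its close relative, had 1 count in vehicle and 23 with DB2115 and was not tested. The clock gene BMAL1 rose (1.19, adjusted p = 4.09e-07), whereas its partner CLOCK (-0.59) and NPAS1 (-1.99) fell.

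Coactivators and corepressors of AHR and ARNT were measured well, all 16 being tested, and 8 rose and 4 fell, with a median log2 fold change of 0.29. The share called, 75%, stood beside 64.1% of all genes tested. NCOA3, a coactivator, rose from 37.6 and 36.9 to 69.5 and 70.8 CPM (0.91, edgeR adjusted p = 6.69e-08). The coactivators EP300 (0.73), NCOA1 (0.72) and CREBBP (0.68) rose, and NRIP1 (-0.52), MED1 (-0.45) and SMARCA4 (-0.42) fell with the deacetylase HDAC2 (-0.90). HDAC1, another deacetylase, rose (0.54), so that these related enzymes were called in opposite directions.

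Of the other steps of CYP1 metabolism, 3 of 7 tested genes rose and 2 fell, 71.4% called beside 64.1% of all genes tested. GSTM1, which was not called, passed the filter only through DB2115. Of the other 6 genes, 3 rose, 2 fell and 1 was not called, with a median log2 fold change of 0.13 (0.36 with GSTM1). EPHX1, the epoxide hydrolase that acts on CYP1 products, rose from 40.6 ± 2.45 to 85.8 ± 8.98 CPM (fitted log2 change 1.08, edgeR adjusted p = 1.13e-07). GSTP1 (0.60) and POR, the electron donor of the P450 enzymes (0.36), rose, whereas SULT1A1 (-1.37), which conjugates phenols, fell.

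Of the PARP genes and ADP-ribose hydrolases listed beside TIPARP, 6 of 16 tested were higher and 7 lower. Their median log2 fold change was -0.11. The share called was 81.2%, beside 64.1% of all genes tested. PARP3 rose from 8.46 ± 0.624 to 37.6 ± 2.95 CPM (2.15, edgeR adjusted p = 9.74e-10). PARP10 (1.47), PARP14 (1.40), PARP9 (1.37), PARP12 (0.74) and PARP4 (0.50) rose as well, and several of these are known as interferon-induced genes. PARP8 (-1.28), PARP15 (-1.48) and the ADP-ribose hydrolase MACROD1 (-0.81) fell. Of the 7 that fell, 4 were called with upper-quartile factors or total counts, the calls lost being those of PARP1 (-0.18), PARP2 (-0.26) and ZC3HAV1 (-0.24). Each of these also lost its call without 1 or more of the libraries. TIPARP, at 0.80, lay within the range of its relatives that rose.

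**Figure D3:**
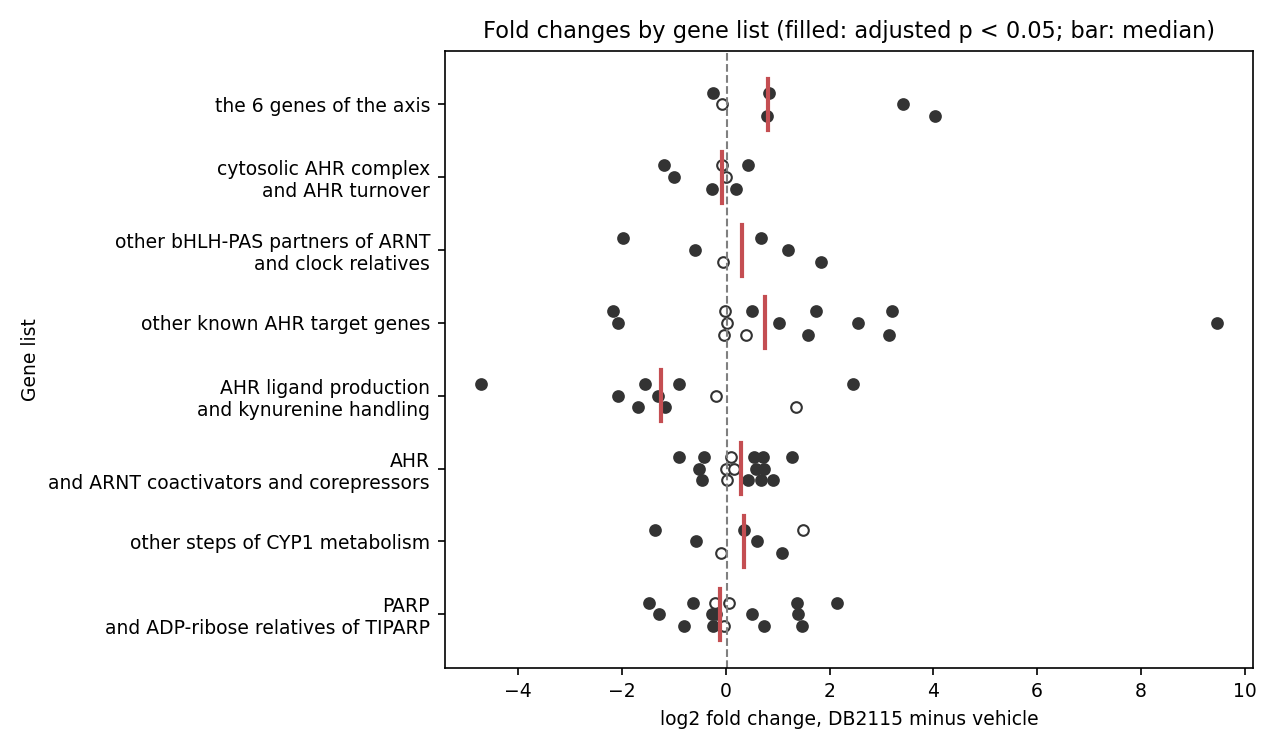
Fitted log2 fold change (horizontal axis, DB2115 minus vehicle) of every tested gene in the 6-gene axis and in 7 gene lists; filled points have adjusted p under 0.05, red bars are medians over all tested genes of a list, those that passed the filter only through DB2115 included, and the dashed line is the median of all genes tested, 0.03. The ligand list has its bar at -1.24 and the target list at 0.76 (0.50 without XDH), and the point at 9.46 is XDH, a fitted value that depends on the prior count because vehicle had no reads.

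Genes with the course across the 4 libraries most like that of each member were sought where the mean was 5 CPM or more and every library had a count, by the root mean square difference of centred log2 CPM. The nearest to ARNT were DLGAP5 (0.0108), a mitotic spindle gene, and PAPSS1 (0.0131). Those nearest to TIPARP were CDCA2 (0.00562), a mitotic phosphatase regulator, and ENSG00000280128 (0.00926). AHRR was nearest to AK3 (0.00346) and CMTR2 (0.00824), and AHR to GPR160 (0.00317) and EIF3L (0.00712). As many as 498 genes lay within 0.1 of ARNT, 489 of TIPARP, 1683 of AHRR and 1812 of AHR, so that with 4 libraries these courses are shared by many genes. CYP1B1 had none within 0.1, and its nearest were CDC42BPG (0.226) and TSPAN9 (0.248). Its vehicle values rest on 3 and 9 counts, and its own level lay below the 5 CPM asked of candidates. These distances therefore do not set the course of CYP1B1 apart. CYP1A1 has no log value in vehicle library A and was left out.

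**Figure D4:**
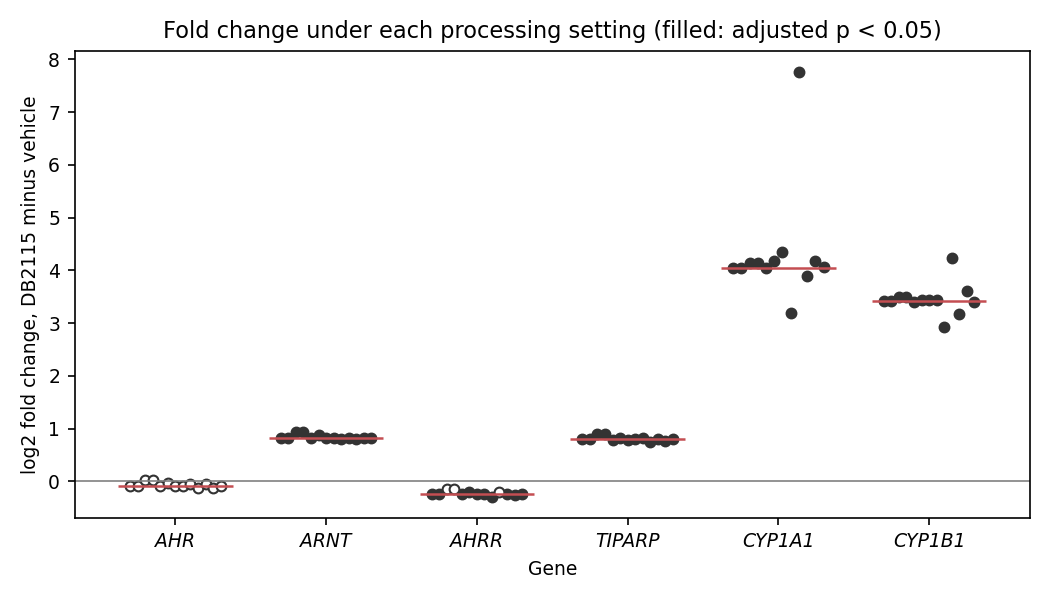
Log2 fold change of the 6 genes (vertical axis, DB2115 minus vehicle) in the reported fit (red line) and under each alternative setting (points, filled where adjusted p is under 0.05). CYP1A1 and CYP1B1 passed the filter of the reported fit only through DB2115. ARNT, TIPARP, CYP1A1 and CYP1B1 are above 0 and called at every point, AHRR is below 0 with 3 open points, and AHR is open throughout and on both sides of 0.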

How the data were processed

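The authors deposited 1 table of raw read counts per gene, not normalised, for 58381 versioned Ensembl identifiers. Per the submitters' processing notes, FastQC, STAR and DESeq2 were used with build hg38; the sources used here do not give versions, annotation, counter or strand setting. From these counts, the A and B columns of each group were compared and the pooled column of each group was left out. Libraries A and B differed beyond sampling (median chi-square 1.48 in vehicle and 1.91 with DB2115, against 0.455). Symbols were matched by identifier for 57799 genes, and lengths and positions came from GENCODE release 29 (GRCh38). Genes were filtered with filterByExpr (minimum count 10, minimum total 15), scaled by TMM and fitted with edgeR 4.0.16 (glmQLFit, glmQLFTest; R 4.3.3), which left 17219 genes with a common biological coefficient of variation of 6.33%. Standard errors are the fold change over the root of F. Counting intervals are exact binomial (95%), for the libraries' summed counts. The fit was also run on simulated counts in which few genes changed, which does not test its scaling where most genes change. No result given here rests on that run. Alternatives were other scalings and filters, DESeq2 1.42.0, limma-voom 3.58.1, each library left out and a block on the column letter.

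The 6 genes and the lists were chosen with earlier results of these data known. Named genes were the 6 members, the 4 genes of each list with the smallest adjusted p, AHR targets silent in 1 group, overlapping and neighbouring genes and the nearest courses; other list members were named after their values were seen, mostly to account for every call. Some genes selected by this rule are not reported here by name but are included in the counts.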

Additional observations from a re-analysis of the deposited data

How the results depend on the processing

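Of the 6 log2 fold changes, those of ARNT (0.80 to 0.93), TIPARP (0.74 to 0.89) and CYP1B1 (2.93 to 4.23) kept their direction and call in all 12 alternatives, and that of CYP1A1 (3.19 to 7.76) in all 11 that gave a value; a filter of 1 CPM in 2 libraries removes CYP1A1. CYP1A1 and CYP1B1 passed the filter of the reported fit only through DB2115. Where a filter was used, their direction was thus largely set in advance, and their repeated calls add little support. AHR, which was not called, turned to 0.02 with upper-quartile factors and with total counts. These factors move the median of all genes from 0.03 to 0.12. AHRR lost its call at -0.14 with each of them, and ranged from -0.29 to -0.21 with each library left out, the call being lost without vehicle library B. The numbers of genes called over the whole table stayed within 1.5 times of 5634 higher and 5396 lower. Of 168 list counts under the alternatives, 163 did so too. Libraries with the same letter did not deviate together (correlation 0.0159), and the labels do not tie letters to replicate numbers; with a replicate block on the letter, which leaves 1 residual degree of freedom, ARNT had a log2 fold change of 0.83 and AHRR one of -0.24, 5810 genes were called higher and 5614 lower, and no call among the 6 genes changed. On the longest transcript 9 of the 12 RPKM levels moved by more than 1 SD (AHR to 2.15 and AHRR to 38.3 in vehicle), the other 3 being CYP1A1 in vehicle and CYP1B1 in both groups, and 36.5% of windows held the motif when 50 bases after the start were added, AHR then with 1 match. At 3 counts, 0.0707 to 0.0821 CPM before TMM scaling, depth limits the vehicle levels of CYP1A1 and CYP1B1.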

Other observations

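The genes next to the 6 members give values that belong to no comparison above. CTSK, the cathepsin K gene that lies 1382 bases from ARNT on chromosome 1, rose from 1.56 and 1.11 to 5.81 and 5.48 CPM (log2 fold change 2.08, edgeR adjusted p = 2.46e-06). SETDB1, on the other side of ARNT, was not called (-0.15, edgeR adjusted p = 0.0583). EDC3 (0.01) and CSK (-0.07), the nearest tested genes to either side of CYP1A1, were not called, although CSK was called at -0.20 (adjusted p = 0.017) without DB2115 library A. ATL2, 184978 bases beyond CYP1B1, fell (-0.50, adjusted p = 2.14e-05), and PIRAT1 before it was not called (0.45). TSPAN13, 131823 bases before AHR, had 24 counts in vehicle and 68 with DB2115 (1.38, adjusted p = 0.0148), a call lost without vehicle library B (adjusted p = 0.0973), DB2115 library A (0.0808) or DB2115 library B (0.0546) and in DESeq2 (0.118), and SNX13 after AHR was not called (-0.03). EXOC3-AS1 (0.36) and PPP4R2P1 (0.34) beside AHRR and SSR3 (-0.14) beside TIPARP were not called; METTL15P1, a pseudogene beyond TIPARP with 128 and 81 counts, had -0.77 (adjusted p = 0.0409), lost without DB2115 library A (adjusted p = 0.201), vehicle library A (0.121) or vehicle library B (0.0881), in DESeq2 (0.179) and with upper-quartile factors (0.0698) or total counts (0.0717).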
